A study of Triticum aestivum with 12 samples.

Results

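The genes described here are the 74 auxin response and auxin transport genes of bread wheat whose expression was measured in roots and shoots of salt-treated and control plants. They are the genes whose text description in any of the 4 lists of differentially expressed genes deposited with the series contains the word "auxin" or "indole-3-acetic", and they are 74 of the 83486 genes in the deposited expression table. Only genes that the authors had called as differing carry a description (5159 of the 24878 listed genes do), so every member was selected on the same contrasts that are described below. Of the 74, 36 came from a list of salt-treated against control tissue, 61 from a list of shoots against roots, and 23 from lists of both kinds. Auxin genes outside those lists carried no description in the files and were not analysed here.

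Auxin, chiefly indole-3-acetic acid, is the plant hormone that directs root branching, cell elongation, gravitropism and the outgrowth of buds. It acts by joining F-box receptors to the Aux/IAA proteins, which are then degraded. Aux/IAA proteins repress the auxin response factors, the transcription factors that bind auxin-responsive promoters, and the Aux/IAA genes are themselves early targets of auxin. PIN efflux carriers move the hormone from cell to cell in one direction, GH3 enzymes conjugate it to amino acids, and SAUR genes encode small, short-lived proteins of the early response.

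By description the members were 34 genes for an "Auxin-responsive protein" (the database name of Aux/IAA repressors), 22 for an auxin response factor, 13 for an auxin efflux carrier component, 3 for a regulator of shoot gravitropism, tiller angle and polar auxin transport, 1 for a SAUR family protein, and 1 for the putative amido synthetase GH3.9. The study grew Najran, a Saudi cultivar of wheat, for 4 weeks in pots under controlled light and temperature. Its 12 libraries form 4 groups of 3, namely roots of plants watered with 200 mM NaCl (salt-treated roots), roots of plants given tap water (0 mM NaCl, control roots), shoots of the salt-treated plants and shoots of the control plants. All 4 groups are of the same cultivar. Each library was made from pooled plants, and roots and shoots were harvested separately, so that in these bulk samples fewer cells of a type and less RNA per cell cannot be told apart.

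The normalized counts of a library summed to between 13890189 and 14183797 in salt-treated roots, 14878135 and 15863307 in control roots, 18565098 and 19748450 in salt-treated shoots, and 20513240 and 25371113 in control shoots. The organ labels fitted the tissue: the 65 genes described as chlorophyll a-b binding proteins, which harvest light in green tissue, summed to between 287955 and 498174 in shoots and between 218 and 935 in roots, and all 65 had a higher mean in shoots. None of the described genes was named a Casparian strip membrane protein, so the root endodermis had no marker of its own. Among the 58 members tested in all 4 comparisons, the median standard deviation within a group on the log2 scale was 0.40 in salt-treated roots, 0.28 in control roots, 0.26 in salt-treated shoots and 0.23 in control shoots. The precision of every value rests on 3 libraries, and single values are estimates with no known counting error. Counts are not divided by gene length, so levels are compared between libraries and not between genes. Positions are whole genes as the deposited lists give them, on the IWGSC wheat assembly of Ensembl Plants.

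The normalized counts of all 74 genes summed to less in salt-treated plants in both organs. This is a sum of transcripts over genes of different roles, and neither auxin nor its signalling was measured. It was 19462 ± 1478 normalized counts in salt-treated roots and 35672 ± 2474 in control roots (mean ± SD, n = 3 each), a ratio of 0.546. In shoots it was 27366 ± 1060 in salt-treated and 36499 ± 927 in control plants (SD, n = 3 each), a ratio of 0.750. The ranges of salt-treated and control libraries did not overlap in either organ. As a share of the library total, the auxin genes took between 0.131% and 0.149% in salt-treated roots and between 0.221% and 0.238% in control roots. In shoots the corresponding shares overlapped, at between 0.134% and 0.148% in salt-treated and between 0.140% and 0.181% in control plants. The library totals were also lower in salt-treated than in control plants in both organs, and their part in the differences of the sums was not tested.

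The sums of the repressors and of the response factors were lower in both organs of salt-treated plants, while the efflux carriers overlapped between salt-treated and control plants. In shoots the sums of the 3 genes for gravitropism and tiller angle and of the SAUR gene were also lower without overlap, with ratios of 0.671 and 0.173. For the 3 genes the nearest salt-treated and control shoots stood at 299.7 and 301.8. Only 1 of the 3, TraesCSU02G083100, had groups that did not overlap by itself. The Aux/IAA genes summed to 9407 ± 806 in salt-treated and 19034 ± 3126 in control roots, a ratio of 0.494, and to 15528 ± 1187 in salt-treated and 22216 ± 666 in control shoots, a ratio of 0.699 (SD, n = 3 each). The response factors summed to 7083 ± 824 in salt-treated and 13853 ± 1826 in control roots, a ratio of 0.511. In shoots they summed to 10703 ± 1296 in salt-treated and 13090 ± 1244 in control plants, a ratio of 0.818, and there the nearest libraries of the 2 groups stood at 12005 and 12007. The efflux carriers summed to 2935 ± 96.2 in salt-treated and 2760 ± 221 in control roots, and to 852 ± 133 in salt-treated and 711 ± 96.3 in control shoots. Between organs the carrier sum did not overlap, with a ratio of shoots to roots of 0.290 in salt-treated and 0.257 in control plants.

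**Figure D1:**
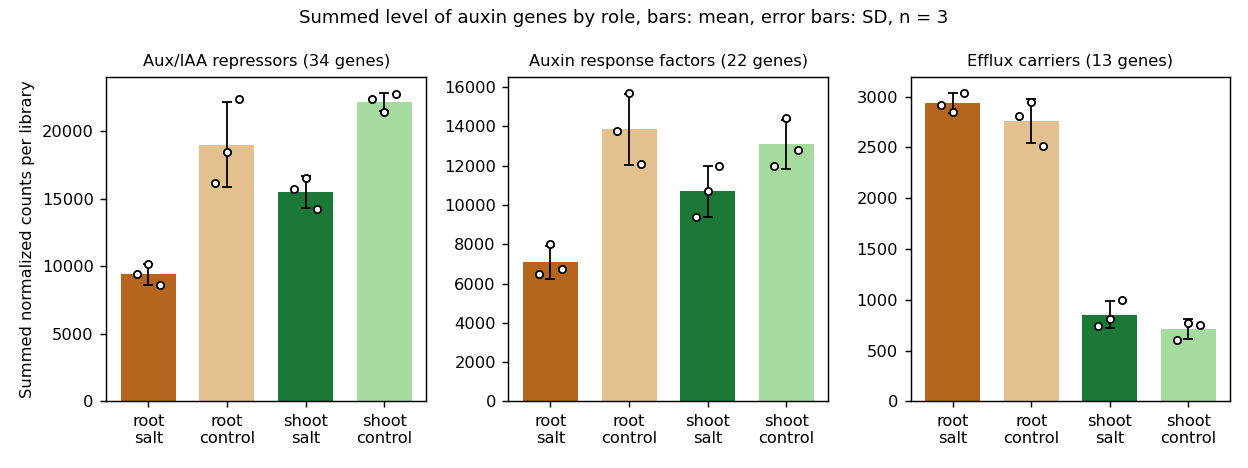
Summed normalized counts per library of the Aux/IAA repressor, auxin response factor and efflux carrier genes in the 4 groups, with bars for the mean, error bars for the SD (n = 3) and points for single libraries, each panel on its own linear axis. Salt-treated roots averaged 9407 for the repressors and 7083 for the response factors, below all control roots, while the carriers averaged 2935 in salt-treated and 2760 in control roots and reached at most 1000.4 in any shoot library.

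In salt-treated roots 9 Aux/IAA and 4 response factor genes fell and 2 efflux carriers rose. A member was called where limma's Benjamini-Hochberg adjusted p over all genes was under 0.01 and the log2 fold change at least 1 in size, and genes under 10 normalized counts in more than 3 of the 6 libraries were not tested. Of the 74 genes 64 were tested, 2 rose and 13 fell, or 23.4%, against 3.47% of all 44737 genes tested (1.17% higher and 2.3% lower). Since the members were chosen through these contrasts, nothing is read from that gap. The log2 fold change was below 0 for 51 of the 64, with a median of -0.72, against -0.02 over all genes tested. For 38 of the 64, salt-treated and control libraries did not overlap, which held for 37.5% of all genes tested.

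The count rests on few libraries. It was 1, 0 and 0 without control root replicates 1, 2 and 3, when 0.331%, 0% and 0.0138% of all genes were called by limma. In these fits 37, 34 and 36 of the members had an unadjusted p under 0.05. That is no support for the calls, since the members were chosen through these contrasts. The count was 3, 13 and 13 without salt-treated root replicates 1, 2 and 3. Every called gene kept its direction in every setting in which it was tested. Scaling all libraries to one total put the median of all genes at 0.12, and then 2 members rose and 9 fell.

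The Aux/IAA repressors were the role with the most calls in roots, 9 of 32 tested, all lower. Their median log2 fold change was -1.25, 26 of the 32 values were below 0, and 25 of the 32 had groups that did not overlap. TraesCS7A02G371500 (chromosome 7A, bases 545472957 to 545474340) had 34.5, 38.9 and 41.1 normalized counts in salt-treated roots, against 201, 320.0 and 448 in control roots. Its log2 fold change was -2.98 ± 0.30 (SE), it was the only member still called without control root replicate 1, and it was not called without control root replicate 2 or 3. The highest salt-treated library and the lowest control library of this gene were far apart, at 41.1 and 201.

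TraesCS7B02G256100 (chromosome 7B, bases 474642958 to 474643848) had 20.0, 34.9 and 35.9 in salt-treated roots, against 174, 206 and 190.0 in control roots. Its log2 fold change was -2.65 ± 0.27 (SE). In shoots it also stood lower in every salt-treated library, at 2.46, 7.42 and 6.45, against 34.1, 34.3 and 21.1 in control shoots, a log2 fold change of -2.33 ± 0.49 (SE) that was not called. There it passed the filter through control shoots alone, in which it is high. TraesCS6B02G411000 (chromosome 6B, bases 685017015 to 685018041) had 33, 31.4 and 16.6 in salt-treated roots, against 133, 118 and 123 in control roots, with a log2 fold change of -2.22 ± 0.30 (SE). The other 6 called repressors had log2 fold changes between -2.17 for TraesCS3A02G276500 and -1.07 for TraesCS5B02G058500.

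Some other repressors stood lower in every salt-treated root library than in any control root library without a call. TraesCS5B02G386800 had 1342, 1102 and 1724 in salt-treated roots, against 2529.8, 2945 and 4243 in control roots, and TraesCS5A02G382600 had 1189, 953 and 1529.7 in salt-treated roots, against 2429.5, 2556 and 3339 in control roots. Their groups did not overlap, and their log2 fold changes were -1.21 ± 0.25 and -1.19 ± 0.23 (SE). Not every repressor was lower: TraesCS7B02G242800 had 1131, 1206 and 543 in salt-treated roots, against 671, 772 and 833 in control roots, with the third salt-treated library below all controls and the other 2 above them. These 3 genes were picked after their values were seen.

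Among the auxin response factors 4 of 21 tested fell in salt-treated roots, and the log2 fold change was below 0 for 19 of the 21, with a median of -0.57. TraesCS2B02G326400 (chromosome 2B, bases 466189430 to 466195033) had 568, 653 and 657 normalized counts in salt-treated roots, against 1909, 2047 and 1437 in control roots. Its log2 fold change was -1.51 ± 0.19 (SE). TraesCS3A02G442000 (chromosome 3A, bases 684040773 to 684045606) had 864, 1165 and 860.2 in salt-treated roots, against 2486, 2869 and 2385 in control roots, and a log2 fold change of -1.43 ± 0.18 (SE). TraesCS2A02G309300 (chromosome 2A, bases 532491310 to 532496731) had 822, 954 and 827 in salt-treated roots, against 2243, 2390.1 and 1951 in control roots, and a log2 fold change of -1.34 ± 0.16 (SE). In each of these genes the highest salt-treated library lay below the lowest control library. The other call, TraesCS3B02G475800, had a log2 fold change of -1.33 ± 0.21 (SE). None of the 4 was called without any one of the control root libraries or without salt-treated root replicate 1, where the 3 named first had log2 fold changes between -1.66 and -1.27.

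**Figure D2:**
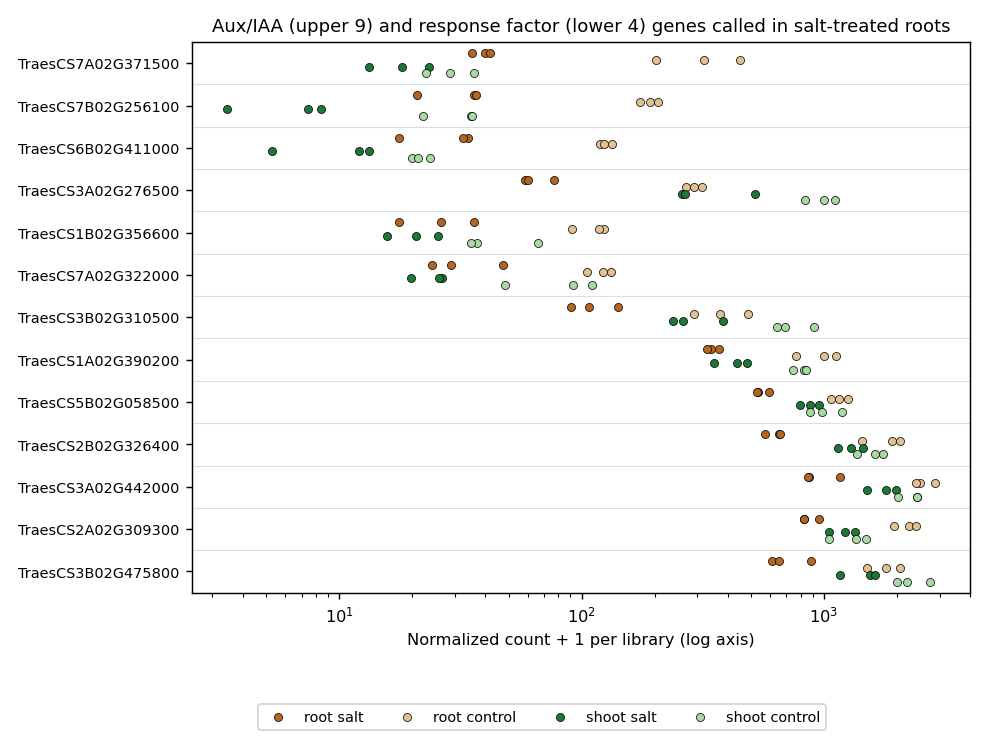
Normalized counts plus 1 (log axis) of the 13 repressor and response factor genes called lower in salt-treated roots, 1 point per library, for salt-treated and control roots and shoots. In every gene the 3 salt-treated root libraries lie to the left of the 3 control root libraries, and TraesCS7A02G371500 at the top shows the widest gap.

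Of the 10 efflux carriers tested in roots 2 rose and none fell. Of their values 5 lay on each side of 0, with 4 of the 10 at an unadjusted p under 0.05 in limma. TraesCS7A02G258800 (chromosome 7A, bases 250325019 to 250327309) had 65, 47.1 and 26.2 normalized counts in salt-treated roots, against 0, 1.56 and 0 in control roots, and it was listed at 0 in all 6 shoot libraries. Its log2 fold change of 5.02 ± 0.59 (SE) is set by the pseudocount of 1 because the control libraries are near 0, and with a pseudocount of 0.1 it was 7.41 and not called. TraesCS5A02G284500 (chromosome 5A, bases 492633166 to 492637155) had 63.5, 84.3 and 34.9 in salt-treated roots, against 10.1, 10.1 and 9.30 in control roots, with a log2 fold change of 2.43 ± 0.38 (SE). Neither was called without any one of the control root libraries, where their values were between 2.39 and 5.47, and TraesCS5A02G284500 was also not called without salt-treated root replicate 1 or 2 (2.35 and 2.15). TraesCS7A02G258800 passed the filter through the 3 salt-treated root libraries alone, in which it is high, and fell under it without any one of them. In both genes the lowest salt-treated library stood above all controls.

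Other carriers were not called, in either direction. TraesCS3A02G426700 had 16.1, 22.2 and 15.7 in salt-treated roots, against 1.68, 5.44 and 0.933 in control roots, and TraesCS5A02G285700 had 14.5, 19.5 and 32.3 in salt-treated roots, against 53.7, 87.9 and 134 in control roots. The groups did not overlap in either gene, and the log2 fold changes were 2.54 ± 0.57 and -1.99 ± 0.42 (SE). TraesCS3A02G426700 passed the filter through salt-treated roots alone, in which it is high. TraesCS3B02G361500 had 729, 948 and 187 in salt-treated roots, against 174, 285 and 158 in control roots, so that the first and second salt-treated libraries lay above all controls and the third lay among them. TraesCS5A02G285700 and TraesCS3B02G361500 were picked after their values were seen.

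In salt-treated shoots 8 Aux/IAA genes and the SAUR gene fell and 1 Aux/IAA gene rose. Of the 74 genes 68 were tested, 1 rose and 9 fell, or 14.7%, against 5.28% of all 44647 genes tested (2.3% higher and 2.99% lower). The log2 fold change was below 0 for 53 of the 68, with a median of -0.48, against -0.01 over all genes. For 38 of the 68 the groups did not overlap, which held for 36.5% of all genes tested. Since the members were chosen through these contrasts, nothing is read from these gaps. The count was 4, 5 and 4 without control shoot replicates 1, 2 and 3, and 3, 7 and 3 without salt-treated shoot replicates 1, 2 and 3. Scaling all libraries to one total put the median of all genes at 0.19, and then 2 members rose and 3 fell.

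The Aux/IAA repressors again held most of the calls, 9 of 33 tested, with a median log2 fold change of -0.93, 30 of 33 values below 0 and 26 of 33 without overlap. TraesCS6A02G111900 (chromosome 6A, bases 80884086 to 80887017) was the repressor that rose. It had 70.1, 59.3 and 66.5 normalized counts in salt-treated shoots, against 9.75, 3.81 and 6.34 in control shoots, with a log2 fold change of 3.19 ± 0.38 (SE). All 3 control shoots were below 10, so it passed the filter through the 3 salt-treated shoots alone, in which it is high, and it was not tested without any one of them. In roots it stood at 13.8, 5.53 and 3.50 in salt-treated and 4.21, 2.34 and 4.61 in control plants, under the limit for testing. TraesCS6A02G112000, another Aux/IAA gene at chromosome 6A, bases 81108400 to 81110913, had 36.9, 48.2 and 21.5 in salt-treated shoots, against 8.13, 4.76 and 12.7 in control shoots, and 23.8, 20.3 and 10.5 in salt-treated roots, against 5.05, 3.90 and 5.53 in control roots. Its groups did not overlap in either organ, and with log2 fold changes of 1.95 ± 0.47 and 1.66 ± 0.45 (SE) it was called in neither. In roots it passed the filter through the salt-treated libraries alone, in which it is high. It was picked for its position after its values were seen.

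TraesCS3A02G108400 (chromosome 3A, bases 73929266 to 73931640) fell in shoots. It had 151, 199 and 137 in salt-treated shoots, against 615, 502 and 570.2 in control shoots, a log2 fold change of -1.80 ± 0.18 (SE) that was called in all 16 alternative settings. TraesCS3A02G276500 (chromosome 3A, bases 506441454 to 506444644) had 257, 517 and 266 in salt-treated shoots, against 997, 1112 and 832 in control shoots. Its second salt-treated library stood above the other 2 and still below all controls. TraesCS1D02G398400 (chromosome 1D, bases 465519500 to 465523685) had 55.4, 113 and 73.8 in salt-treated shoots, against 215, 207 and 242 in control shoots. The log2 fold changes of these 2 genes were -1.57 ± 0.27 and -1.50 ± 0.26 (SE), and both lost their call without any one control shoot library and without salt-treated shoot replicate 1 or 3, at values between -1.68 and -1.26. The other 5 that fell had log2 fold changes between -1.40 for TraesCS3B02G127400 and -1.02 for TraesCS3A02G121300.

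The SAUR gene TraesCS5B02G342500 (chromosome 5B, bases 526668126 to 526668563), described as a negative regulator of auxin synthesis and transport, had 19.6, 16 and 19.4 normalized counts in salt-treated shoots, against 125, 70.4 and 123 in control shoots. The groups stood well apart, and the log2 fold change was -2.43 ± 0.30 (SE). Without control shoot replicate 3 it was -2.30 and not called. In roots 5 of the 6 libraries were at 0 and the other, a control, at 0.842.

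None of the 22 response factors and none of the 9 efflux carriers tested was called by limma in salt-treated shoots, with 5 and 4 at an unadjusted p under 0.05. The response factors had a median log2 fold change of -0.30, with 16 of 22 below 0, and -0.10 with 12 of 22 below 0 after scaling to one total. TraesCS2A02G309300, lower in salt-treated roots, had 1051, 1216 and 1336 in salt-treated shoots, against 1493, 1353 and 1049.7 in control shoots, and the groups overlapped. The efflux carriers had a median of 0.21 in shoots. The carrier TraesCS3B02G462900 had 60.3, 94.7 and 73.7 in salt-treated shoots, against 34.1, 29.5 and 41.4 in control shoots, and 5.35, 5.56 and 4.36 in salt-treated roots, against 0, 0.777 and 0 in control roots. It was higher in every salt-treated library of both organs, with a log2 fold change in shoots of 1.09 ± 0.27 (SE) that was not called, and it was picked after its values were seen.

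**Figure D3:**
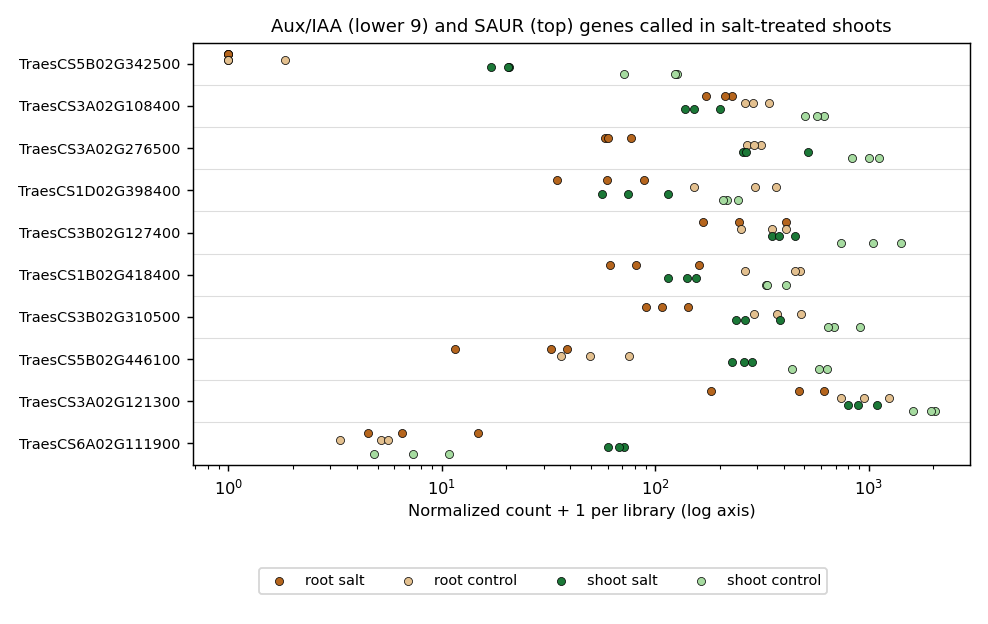
Normalized counts plus 1 (log axis) of the 10 members called in salt-treated shoots, 1 point per library, for salt-treated and control roots and shoots. TraesCS6A02G111900 in the bottom row is the only one with its salt-treated shoots to the right of its control shoots, and TraesCS5B02G342500 in the top row is at or near 0 in roots.

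The calls in roots and shoots were compared for the members only, with no share over all genes beside them. Of the 23 members called in either salt comparison, 2 were called in both, and these were lower in both organs. TraesCS3A02G276500 had 57.4, 76 and 59.4 in salt-treated roots, against 268, 312 and 289.9 in control roots, beside the shoot values given before. TraesCS3B02G310500 (chromosome 3B, bases 499173177 to 499176380) had 106, 141 and 89 in salt-treated roots, against 289, 483 and 370.1 in control roots, and 262, 384 and 238 in salt-treated shoots, against 688, 910.1 and 641 in control shoots. Both are Aux/IAA genes, and their log2 fold changes in roots were -2.17 ± 0.19 and -1.75 ± 0.26 (SE). Leaving out any one control root library from the root comparison left no member called in both. A call in one organ alone does not show that the responses differed. Of the 59 members tested in both organs, 39 had values below 0 in both, 4 above 0 in both, 8 were higher in roots and lower in shoots, and 8 the reverse. Nothing is read from these counts, since they were not made over all genes.

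**Figure D4:**
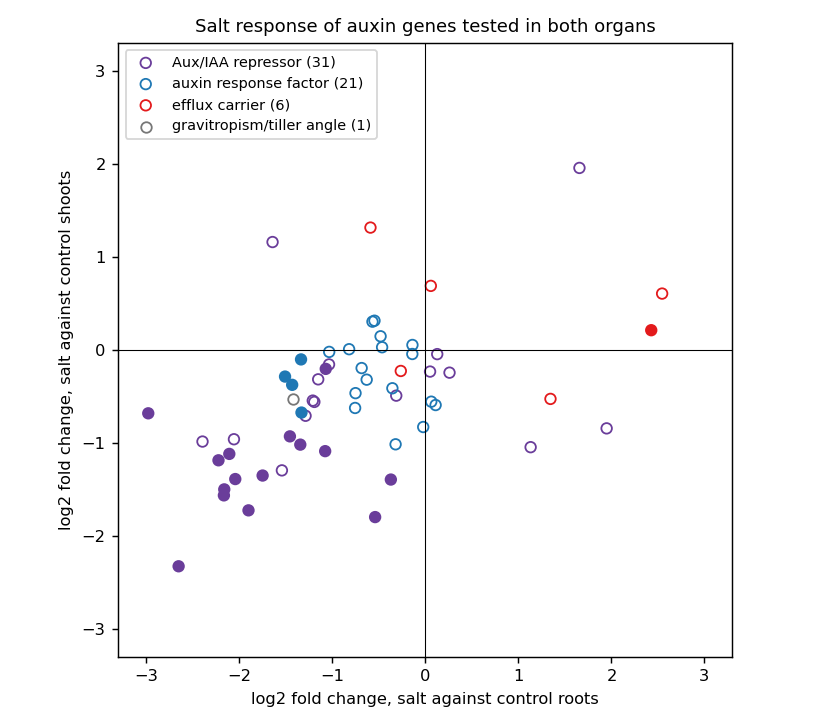
Log2 fold change of salt-treated against control plants in roots (horizontal) and shoots (vertical) for the 59 members tested in both organs, coloured by role, with filled symbols for those called in at least 1 organ. The lower left field holds 39 genes, among them all filled repressors and both genes called in both organs.

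The difference of the salt response between organs, fitted over all 12 libraries as the shoot response minus the root response, was called for 3 of the 74 members, or 4.05%, against 2.13% of all 51487 genes tested (1.21% higher and 0.925% lower). TraesCS1A02G343300 (chromosome 1A, bases 531877397 to 531880159), an Aux/IAA gene, had 110.2, 105 and 146 in salt-treated roots, against 545, 373 and 256 in control roots, and 175, 220.3 and 138 in salt-treated shoots, against 104, 77 and 58.3 in control shoots. It was thus lower in every salt-treated root library and higher in every salt-treated shoot library, and the difference was 2.80 ± 0.42 on the log2 scale (SE). The response factor TraesCS2A02G309300 differed by 1.23 ± 0.23 (SE) and was not called with the replicate number as a block or without any one library other than control shoot replicate 1. Without each of the other 11 libraries in turn it was between 1.09 and 1.33. The carrier TraesCS7A02G258800 gave -5.02 ± 0.68 (SE). It is at 0 in all shoots and passed the filter through salt-treated roots alone, so this is its root fold change with the sign turned, set by the pseudocount, and no measure of a shoot response. The count was 1 without control root replicate 2 or salt-treated root replicate 1 or 2, and between 2 and 3 without any other library. These counts are not of the same genes. Without salt-treated root replicate 3, TraesCS1A02G343300 was called at 2.95 beside 2 other Aux/IAA genes, TraesCS1A02G082700 at -2.50 and TraesCS1B02G100300 at -3.14, which were picked for this after their values were seen. Without control root replicate 2, TraesCS1A02G343300 had a difference of 2.80 that was not called.

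Other members with large differences were not called. TraesCS1B02G100300 had 20.4, 24.7 and 10.3 in salt-treated roots, against 3.35, 2.33 and 6.48 in control roots, and 21.9, 35.3 and 18 in salt-treated shoots, against 37.8, 45 and 50.4 in control shoots, which gave a difference of -2.79 ± 0.60 (SE). TraesCS1A02G082700 had 40.1, 42.2 and 20.8 in salt-treated roots, against 15, 10.5 and 18.9 in control roots, and 71, 73.5 and 63.3 in salt-treated shoots, against 178, 135 and 124 in control shoots, a difference of -2.18 ± 0.44 (SE). Both are Aux/IAA genes that were higher in all salt-treated root libraries and lower in all salt-treated shoot libraries, and TraesCS1A02G082700 was picked after its values were seen. The difference was 2.47 ± 0.67 for TraesCS6A02G111900 and 2.29 ± 0.46 for TraesCS7A02G371500 (SE).

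The comparisons of shoots against roots called more members than those of salt-treated against control tissue, as they did over all genes. Of the members 61 came from lists of shoots against roots and 36 from salt lists, so nothing is read from that ranking. In salt-treated plants 71 members were tested, 23 were called higher and 13 lower in shoots than in roots, or 50.7%, against 29.8% of all 47079 genes tested (17.4% higher and 12.3% lower). In control plants 67 were tested, 23 were higher and 19 lower, or 62.7%, against 36.3% of all 47566 genes tested (19.6% higher and 16.7% lower). Shoot and root libraries did not overlap for 55 of the 71 in salt-treated plants, where 56.5% of all genes did not, and for 52 of the 67 in control plants, where 59.5% did not. Both comparisons called the same 13 genes higher and the same 11 genes lower, and no gene was called in opposite directions. The calls in salt-treated plants were 22 without salt-treated root replicate 1 and 23, 21 and 21 without salt-treated shoot replicates 1, 2 and 3.

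Shoot libraries held larger totals, and the split of these calls depended on the scaling. With each library scaled to the same total, which set the median of all genes at -0.48 in salt-treated and -0.58 in control plants, 12 members were higher and 15 lower in shoots of salt-treated plants, and 16 higher and 22 lower in shoots of control plants. With each library scaled to the same median the splits were 15 to 15 and 19 to 21. The median log2 fold change of the members was 0.88 in salt-treated and 0.32 in control plants as deposited, and 0.42 and -0.21 with the same total.

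Some efflux carriers were far higher in roots and others far higher in shoots. In salt-treated plants 3 of 12 tested were higher and 8 lower in shoots, and in control plants 3 of 11 were higher and 6 lower, and these counts were the same under both other scalings. The filter was applied before scaling. All 3 called higher in control plants, TraesCS3A02G231500, TraesCS3A02G426700 and TraesCS3B02G462900, passed it through control shoots alone, in which they are high. In salt-treated plants this held for TraesCS3A02G231500 and TraesCS3B02G462900. Among those lower in shoots, TraesCS5A02G285700 and TraesCS7A02G492400 passed it through roots alone in both treatments. So did TraesCS7A02G258800 and TraesCS7B02G398100 in salt-treated plants. Leaving out 1 library also changed which carriers passed the filter. Without salt-treated root replicates 1, 2 and 3, 8 were tested in salt-treated plants, with 3 higher in each case and 3, 3 and 4 lower. The median was -0.25, -0.11 and -0.10 in these cases, against -2.43 with all libraries. Without any one salt-treated shoot library 1 was higher and 7 or 8 lower. In control plants the counts were 3 higher and 4 lower without any one control root library, and 0 higher and 6 lower without any one control shoot library. TraesCS7A02G492400 (chromosome 7A, bases 681011336 to 681015619) had 6.16, 3.69 and 5.34 in salt-treated shoots, against 255, 213 and 402 in salt-treated roots, and 3.25, 3.80 and 8.50 in control shoots, against 370.0, 318 and 336 in control roots. TraesCS7B02G398100 (chromosome 7B, bases 664106649 to 664110679) had 2.46, 7.37 and 5.34 in salt-treated shoots, against 268, 209.7 and 472 in salt-treated roots, and 13, 17.1 and 3.19 in control shoots, against 436, 447 and 401 in control roots. These carriers were root genes, with log2 fold changes in control plants of -5.88 ± 0.35 and -5.39 ± 0.51 (SE), and no shoot library of either gene passed 17.1. TraesCS3A02G231500 (chromosome 3A, bases 432040315 to 432043798) had 77.6, 83.6 and 79 in salt-treated shoots, against 0.764, 1.85 and 1.74 in salt-treated roots, and 55.3, 121 and 119 in control shoots, against 0 in all control roots. TraesCS3A02G426700 (chromosome 3A, bases 669619467 to 669624388) had 175, 234 and 279.8 in salt-treated shoots, against 16.1, 22.2 and 15.7 in salt-treated roots, and 172, 143 and 132 in control shoots, against 1.68, 5.44 and 0.933 in control roots. TraesCS3A02G231500 and TraesCS3A02G426700 were shoot genes, and the fitted values of 6.55 ± 0.39 and 5.53 ± 0.46 (SE) in control plants depend on the pseudocount, since the root libraries are at or near 0.

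**Figure D5:**
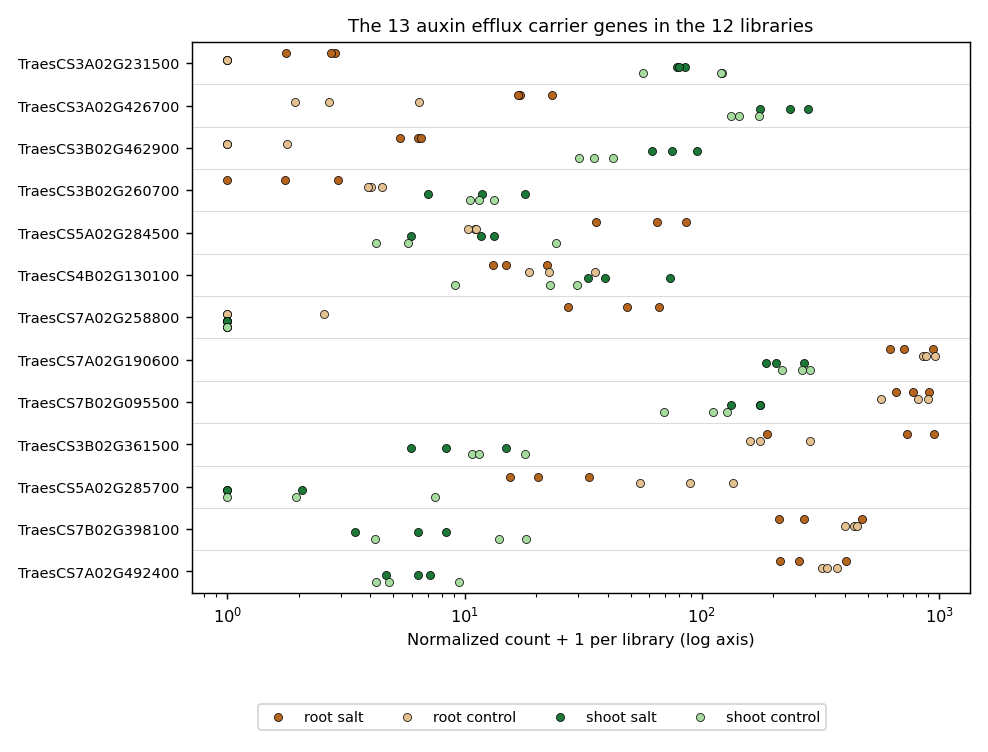
Normalized counts plus 1 (log axis) of the 13 auxin efflux carrier genes, 1 point per library, ordered from the highest to the lowest ratio of shoots to roots. The upper 4 rows have every shoot library to the right of every root library and the lower 6 have the reverse, and TraesCS7A02G258800 has points above 3 only in salt-treated roots.

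As deposited, 12 of the 22 response factors were higher and 4 lower in shoots than in roots of salt-treated plants, and 7 were higher and 4 lower in control plants. With the same total per library the splits were 3 higher to 4 lower in salt-treated plants and 2 higher to 5 lower in control plants. In salt-treated plants shoot and root libraries did not overlap for any of the 22. TraesCS3A02G159200 (chromosome 3A, bases 158467595 to 158471848) had 11.1, 7.37 and 7.47 in salt-treated shoots, against 587, 609 and 471 in salt-treated roots, and 11.4, 19 and 27.6 in control shoots, against 672, 726 and 671 in control roots. TraesCS3B02G190100 (chromosome 3B, bases 202574346 to 202578692) had 20.9, 29.5 and 26.7 in salt-treated shoots, against 277, 388 and 277 in salt-treated roots, and 21.1, 52.3 and 36.1 in control shoots, against 374, 409 and 407 in control roots. Both were root genes in each treatment, with log2 fold changes in control plants of -5.17 ± 0.30 and -3.49 ± 0.31 (SE). TraesCS6A02G222300 had 53.7, 50.4 and 66.9 in control shoots, against 8.39, 10.1 and 19.6 in control roots, and TraesCS6B02G258800 had 74.8, 64.6 and 81.8 in control shoots, against 31.9, 15.5 and 15 in control roots. Of the 22 response factors these stood furthest towards shoots in control plants, at 2.16 ± 0.37 and 1.86 ± 0.35 (SE), and TraesCS6B02G258800 was not called at 1.35 with the same total per library.

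The Aux/IAA genes went both ways, with 6 of 32 higher and 1 lower in shoots of salt-treated plants and 10 of 31 higher and 9 lower in shoots of control plants. After scaling to one total the splits were 4 to 3 and 8 to 11. TraesCS5B02G446100 (chromosome 5B, bases 617711123 to 617712472) had 584, 438 and 637 in control shoots, against 35.3, 48.3 and 74.3 in control roots, a log2 fold change of 3.42 ± 0.29 (SE). TraesCS5D02G449400 (chromosome 5D, bases 498403470 to 498404839) had 16.3, 14.3 and 15.9 in control shoots, against 0, 0.779 and 0.930 in control roots, where it was at or near 0. This gene passed the filter through control shoots alone, in which it is high. On the root side, TraesCS7A02G371500, the repressor with the largest fall in salt-treated roots, had 27.6, 21.9 and 35 in control shoots, against 201, 320.0 and 448 in control roots, a log2 fold change of -3.42 ± 0.33 (SE). In salt-treated plants it had 17.2, 12.3 and 22.5 in shoots and 34.5, 38.9 and 41.1 in roots, so that the gap between organs was narrower there. TraesCS6A02G373300 (chromosome 6A, bases 596739621 to 596740759) had 58.5, 52.3 and 48.7 in control shoots, against 310.2, 366 and 395 in control roots, a log2 fold change of -2.72 ± 0.19 (SE).

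Of the 3 genes for gravitropism and tiller angle, TraesCSU02G083100 was higher in shoots in both treatments and TraesCS6B02G461400 in control plants, and the other comparisons of organs were not called or, for TraesCS6D02G396500 in control plants, not tested. TraesCSU02G083100 passed the filter through shoots alone, in which it is high, in both treatments. So did TraesCS6D02G396500 in salt-treated plants. TraesCSU02G083100, on no assigned chromosome, had 116, 96.6 and 114 in salt-treated shoots, against 0.777, 4.71 and 0 in salt-treated roots, and 141, 214 and 205 in control shoots, against 0 in all control roots. TraesCS6B02G461400 (chromosome 6B, bases 714632536 to 714637363) had 156, 143 and 65.2 in salt-treated shoots, against 23, 19.5 and 0 in salt-treated roots, and 155, 185 and 153 in control shoots, against 25.2, 21.8 and 14.9 in control roots. TraesCS6D02G396500 (chromosome 6D, bases 468839593 to 468844556) had 27, 11 and 20.6 in salt-treated shoots, against 0.759, 5.63 and 0 in salt-treated roots, and 6.59, 27.4 and 30.5 in control shoots, against 1.70, 2.31 and 4.63 in control roots. In all 3 every shoot library was above every root library, and none was called between salt-treated and control plants by limma, with 1 of the 3 tested in shoots and 0 of the 1 tested in roots at an unadjusted p under 0.05. The third salt-treated root library was at 0 in each of them, and the log2 fold change of TraesCS6B02G461400 in roots was -1.43 ± 1.15 (SE) with it and 0.06 without it.

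The putative GH3.9 gene TraesCS2B02G134200 (chromosome 2B, bases 100334620 to 100338647) had few counts throughout. It had 20.6, 33.4 and 3.49 in salt-treated roots, against 4.20, 0.777 and 0.933 in control roots, and 24.6, 6.15 and 13.9 in salt-treated shoots, against 6.51, 2.85 and 4.25 in control shoots. Salt-treated libraries were higher on average in both organs, but 1 library of each salt-treated group lay among its controls. Among the comparisons of 6 libraries, the gene passed the filter only for shoots against roots of salt-treated plants, where its log2 fold change was -0.10 ± 0.83 (SE). It was also tested over all 12 libraries for the difference of the salt response, which was -1.13 and not called.

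By position the members lay mostly on the A and B subgenomes, with 33 on A, 36 on B, 4 on D and 1 unplaced. The D subgenome held 5.41% of the members, against 10.3% of all described genes, 9.18% of all genes in the 4 lists and 25.2% of the genes in the deposited table, counted over IDs that name a chromosome or mark the gene as unplaced, and given without a test. Chromosome groups 3 and 7 held 15 members each, groups 5 and 6 held 13 each and group 4 held 1. Reads of near-identical copies on the 3 subgenomes can be split between them by the quantification, and the library kit kept no strand, so that values of single copies are uncertain to that extent.

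Genes of families with known members in auxin synthesis, transport or response were found by their descriptions in the same lists and were likewise selected on these contrasts. These are whole families, and not every gene in them is known to act on auxin. Among 70 WAT1-related genes, whose Arabidopsis namesake exports auxin from the vacuole, 3 of 65 tested rose and 11 fell in salt-treated roots, and 1 of 38 rose and 3 fell in salt-treated shoots, where 3.47% of all genes tested were called in roots and 5.28% in shoots. Of 63 WAT1-related genes tested, 11 were higher and 43 lower in shoots than in roots of control plants, a comparison that called 36.3% of all genes. The 45 flavin-containing monooxygenases are of the class to which the YUCCA enzymes of auxin synthesis belong. Of 30 tested in salt-treated roots 2 rose and 1 fell, where 1.17% of all genes tested were called higher and 2.3% lower. In salt-treated shoots 1 of 18 tested rose and none fell, where 2.3% of all genes tested were called higher and 2.99% lower. The single gene described as a tryptophan aminotransferase, TraesCS3D02G246700, had 1.53, 8.34 and 1.75 normalized counts in salt-treated roots, against 26.0, 31.9 and 24.2 in control roots, a log2 fold change of -2.81 ± 0.58 (SE) that was not called. The groups did not overlap in this gene, whose enzyme class makes the precursor of indole-3-acetic acid. In roots it passed the filter through the control libraries alone, in which it is high. Its log2 fold change in shoots was -1.11 ± 0.58 (SE), also not called. All 6 LOB domain genes were lower and all 6 genes of the ABC transporter B family, none of them described as an auxin transporter, were higher in shoots than in roots of control plants, and none of these 12 was called under salt in either organ by limma, with 3 and 2 at an unadjusted p under 0.05 in roots. In shoots no LOB domain gene passed the filter, and 3 of the 6 transporters had an unadjusted p under 0.05. Between organs of control plants, TraesCS4A02G415300, TraesCS4A02G415400, TraesCS4B02G316100 and TraesCS4B02G316200 of the LOB domain genes passed the filter through roots alone, in which they are high.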

How the data were processed

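RNA of roots and shoots was sequenced from a non-directional kit. The authors trimmed the reads (Trimmomatic 0.36, quality by FastQC 11.8), quantified them with Salmon 0.12.0 against Ensembl Plants wheat transcripts, summed them to genes with tximport and normalized them with DESeq2. The deposited table of normalized counts, a signal per gene and library, was used as it stands, since no whole reads could be recovered. The deposited lists of differentially expressed genes gave descriptions, positions and membership. Their fold change, p-value and mean columns were not used. No library column was left unmapped (0).

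Log2(normalized count + 1) was fitted with limma 3.58.1 (R 4.3.3, trended empirical Bayes) over all genes with at least 10 normalized counts in at least 3 of the 6 libraries compared, or of all 12 libraries for the difference of the salt response. In a comparison of 6 libraries, a gene under 10 in every library of 1 group passed through the other group alone, in which it is high. P-values were adjusted by Benjamini-Hochberg over all genes, and a call needed an adjusted p under 0.01 and a log2 fold change of at least 1. The scripts were tested on simulated data. Figures were drawn with matplotlib 3.10.9. The members and lists were chosen with earlier results of these data known, and because the rule used the contrasts, member values carry no p. Counts of members at an unadjusted p under 0.05 are a description and no support for a call. A test of 3 against 3 libraries by exact permutation cannot go below 0.1.

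Named genes were, per role, up to 3 called under salt in each organ and direction, up to 2 in each direction with the largest difference between organs of control plants and no overlap, the 5 largest differences of the salt response, and every gene of a role with 3 or fewer members. TraesCS3B02G310500, TraesCS3B02G475800, the genes at the ends of ranges and those said to be picked were added after their values were seen. Same-numbered root and shoot libraries of control plants deviated together (r of 0.15, 0.26 and 0.39), so the numbers appear to pair them. Those of salt-treated plants gave 0.35, 0.26 and 0.08. The reported fits and their SE left this pairing out. For the difference of the salt response, the replicate block also joins salt-treated and control libraries of the same number, so it is no test of the pairing alone. Alternatives were other thresholds, pseudocounts of 0.1 and 10, no filter or a mean of at least 50, scaling to the same total or median, a fit of all 12 libraries, a replicate block, and leaving out each library.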

Additional observations from a re-analysis of the deposited data

Results flagged for a closer look

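Of the 74 auxin genes, 3 had a salt response that was called as differing between shoots and roots in limma's interaction term (shoot response minus root response). That is 4.05%, against 2.13% of all 51487 genes tested, and nothing is read from the gap. The difference on the log2 scale was 2.80 for the Aux/IAA gene TraesCS1A02G343300, 1.23 for the response factor TraesCS2A02G309300 and -5.02 for the efflux carrier TraesCS7A02G258800. The response factor was not called with the replicate number as a block or without any one library other than control shoot replicate 1. The Aux/IAA gene was not called without control root replicate 2. The carrier was at 0 in all 6 shoot libraries and passed the filter through salt-treated roots alone, so its value is the root fold change with the sign turned and is set by the pseudocount. The members were selected on contrasts that make up this term, so these values are a description.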

How the results depend on the processing

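No call of a member in the 5 comparisons changed direction under any alternative in which the gene was tested. The calls in salt-treated roots (15) became 27 at an adjusted p under 0.05, 24 in a fit of all 12 libraries and 2 with the replicate number as a block, and were between 0 and 13 with 1 library left out. The calls in salt-treated shoots (10) became 17 at an adjusted p under 0.05 and 5 with each library scaled to the same total, and were between 3 and 7 with 1 library left out. Shoots against roots gave between 21 and 30 calls with 1 library left out in salt-treated plants (36) and between 33 and 40 in control plants (42). The difference of the salt response (3) was called for 11 members at an adjusted p under 0.05, for 9 with a pseudocount of 10, and for between 1 and 3 with 1 library left out, not always of the same genes.

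The members' median log2 fold change was -0.58 in roots (-0.72) with each library scaled to the same total, and between -0.92 and -0.65 with 1 library left out. In shoots (-0.48) it was -0.37 with a pseudocount of 10 and -0.27 with the same total, and between -0.57 and -0.39 with 1 library left out. For shoots against roots of salt-treated plants (0.88) it was 0.72 with a pseudocount of 10, 0.42 with the same total and 0.63 with the same median, and between 0.60 and 1.05 with 1 library left out. For control plants (0.32) it was -0.21 with the same total and between -0.18 and 0.43 with 1 library left out. The cause of these shifts was not tested.

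The replicate block left the calls at 7 in shoots, 36 and 44 in the 2 comparisons of organs (salt-treated and control plants) and 3 for the difference, where TraesCS7A02G371500 took the place of TraesCS2A02G309300. In the salt comparisons same-numbered deviations correlated by between 0.02 and 0.15 in roots and between 0.00 and 0.08 in shoots. Those of different numbers gave between -0.09 and 0.03 in roots and between -0.16 and 0.09 in shoots. Whether the numbers join salt-treated and control libraries was not tested.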
